A study of Mus musculus with 21 samples.

Results

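The comparison described here spans the whole time course of wild-type C2C12 cells in control medium, day 0 against day 5. C2C12 is a mouse myoblast line that can leave the cell cycle in culture and form muscle cells. The series holds 20 H3K36me3 ChIP-seq libraries with a deposited peak list, and 4 of them make up this comparison: both wild-type (WT) libraries of day 0 and both WT libraries of day 5 in control medium (CTL). The 6 other WT libraries, day 1 in control medium and days 1 and 5 under methionine restriction (MR), entered the estimate of the spread between replicates, the choice of the genes tested and the length set for lists of equal covered length. Day 1 in control medium is also given as an intermediate time. The labels call the cells mouse myoblasts on every day, give no composition for either medium, and do not say how far the cultures had fused. They tell the replicates apart by a number alone, so p-values measure the spread between these libraries, which may be technical. Per the labels' protocol, Drosophila chromatin was added as a spike-in, which was not used to scale any value below.

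Trimethylation of lysine 36 on histone H3 (H3K36me3) is placed by SETD2 as it travels with elongating RNA polymerase II, so the mark lies over the bodies of transcribed genes and is usually stronger toward their 3′ end. In muscle differentiation, MYOD1 and the other basic helix-loop-helix factors, with MEF2 proteins, turn on the genes of the contractile apparatus. The cells then withdraw from the cell cycle while the E2F targets for replication and division are shut down.

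The value analysed was cover, the percent of a gene's body that lay inside the peaks of a library. It measures the extent of peaks over a gene, not the strength of the mark. Peaks were called by the authors in each library by itself. The peak lists carry no read depth, so the depth is unknown and no counting interval can be given. Day 0 replicate 1 had 73037 peaks over 178.6 Mb and replicate 2 had 86381 peaks over 159.2 Mb. The day 5 replicates had 87398 peaks over 183.5 Mb and 87266 peaks over 170.9 Mb. The day 0 lists also differed from each other in shape. Replicate 1 had 67.7 Mb in peaks longer than 10 kb and replicate 2 had 40.9 Mb, and the highest fold enrichment given by the authors was 13.7 in replicate 2 against 7.81 to 9.63 in the 3 other libraries. Overlap between lists, as shared bases divided by all bases of the pair (Jaccard index), was 0.697 between the day 0 replicates, 0.692 between the day 5 replicates and 0.584 to 0.623 between the days.

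Of 19300 protein-coding genes of at least 2 kb, 9512 had a mean cover of at least 5% over the 10 WT libraries and were tested. Between day 0 and day 5, 2641 of them were called (limma, Benjamini-Hochberg (BH) adjusted p under 0.05), which is 27.8% of the genes tested. Cover was higher at day 5 in 1157 genes (12.2%) and lower in 1484 (15.6%). The largest difference upward was that of Mybph, a myosin-binding protein, and the largest downward that of Igfbp2, an IGF-binding protein. The median difference, day 5 minus day 0, was 22.1 percentage points among genes called higher, −23.9 points among genes called lower and −1.17 points over all genes tested. A change of at least 50 points was seen in 134 genes called higher and 170 called lower. The share of calls that were higher, 43.8%, depended on how the libraries were put on a common footing. It was 55.4% with each library centred on its median cover, which moved the median difference of all genes to 1.21 points, and 29.4% in lists restricted to peaks with a −log10 q of at least 3. It was 52.1% without day 0 replicate 1 and 51.0% without day 5 replicate 2. Without day 5 replicate 1 the genes called higher were 738, and without day 5 replicate 2 the genes called lower were 930.

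**Figure D1:**
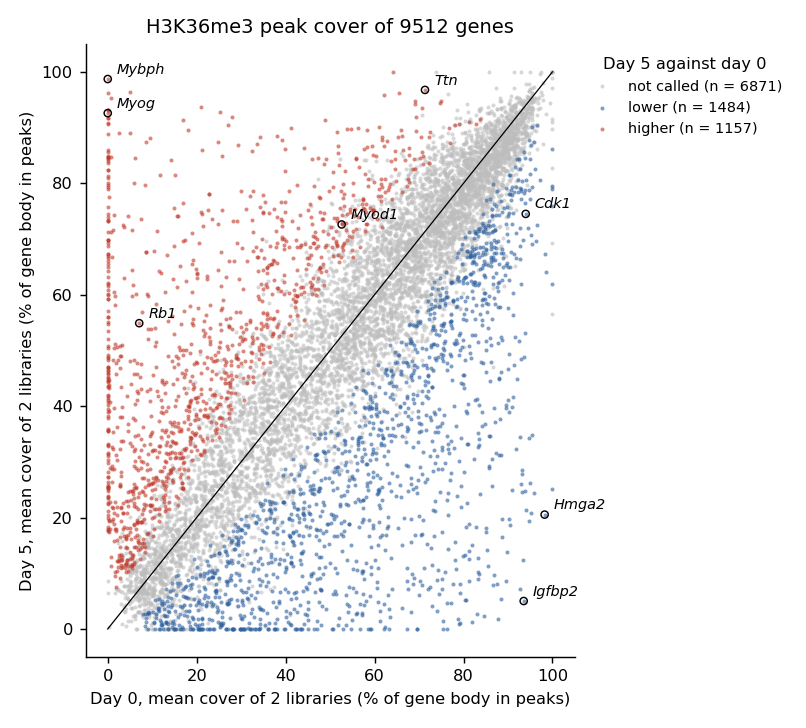
Mean cover of each tested gene at day 0 (x axis, % of the gene body in peaks) against day 5 (y axis, same unit), each the mean of 2 libraries, with genes called higher in red, called lower in blue and not called in grey. A column of 0% at day 0 on the left holds genes such as Myog and Mybph that were above 90% at day 5, and Igfbp2 and Hmga2 lie at the opposite corner.

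The list of 23 transcription factors and cofactors of the muscle lineage had 14 genes tested, of which 6 were called higher and 2 lower, beside 12.2% higher and 15.6% lower over all genes. The median difference was 5.45 points, and over the alternatives 3 to 7 were called higher and 0 to 4 lower. Myod1, the factor that commits cells to muscle, was already covered to 55.1% and 50.1% at day 0, and was at 66.8% and 78.4% at day 5. Its groups did not overlap, as in 25.8% of tested genes with day 5 above and 36.1% with day 5 below, and the difference of 20.01 points was called (SE 6.18, limma adjusted p = 0.0428), but the call was lost under 13 of the 20 alternatives in which it was tested. Without day 5 replicate 2 its limma adjusted p was 0.233, without day 0 replicate 2 it was 0.145 and without day 0 replicate 1 it was 0.0639. Myog, which drives terminal differentiation, had no cover in either day 0 library and 91.7% and 93.4% at day 5, a difference of 92.6 points (SE 3.16, limma adjusted p = 1.03e-06). Most of that span had been crossed by day 1, when its libraries stood at 70.6% and 73.2%.

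Of the MEF2 genes, Mef2c had no cover at day 0 or day 1 and 35.97% and 29.8% at day 5, a rise of 32.9 points (limma adjusted p = 1.24e-05). Mef2a went from 31.7% and 14.3% to 53.6% and 48.7%, and Mef2d, at 65.5% to 79.4% in all 4 libraries, was not called. Smyd1, a muscle methyltransferase needed for sarcomere assembly, had no cover at day 0 and 48.2% and 41.8% at day 5. Tead4, a factor that binds MCAT elements, went from 44.5% and 52.7% to 84.7% and 82.1%. The call of Mef2a was lost with the 4 compared libraries alone and without day 5 replicate 1 (limma adjusted p = 0.06), and that of Smyd1 in lists of equal covered length.

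Eya1, a transcriptional coactivator of muscle progenitors, fell from 21.7% and 11.8% to 0.206% and 0.320% (limma adjusted p = 0.00302). The call was lost with the 4 compared libraries alone. Six4 and Tcf3 were not called and had at least 74.3% cover in every library. The progenitor genes Pax7 and Myf5 were not tested and had at most 4.54% and 12.2% cover at day 0. Id1 and Id3, which encode inhibitors of MYOD1, are under 2 kb and were therefore not tested. Id1 was covered to 36.4% and 72.7% and Id3 to 59.6% and 74.7% at day 0, and both were listed at 0 in both libraries of day 1 and of day 5.

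Of the genes of the contractile filaments, all 13 thick filament genes that could be tested, of 18 listed, were called higher (12.2% over all genes), with a median difference of 62.0 points. A gene covered at day 5 alone passes the filter only through day 5, so these counts describe the list and are not a test of it. The same holds for the list of muscle regulators above and for the other lists of muscle genes below. None of the 13 exceeded 4.09% at day 0 in either library. Mybph, a myosin-binding protein, went from 0% in both libraries to 99.6% and 97.8%, and Myom3, a protein of the M-line, went from 0% to 91.8% and 89.6%. Over the myosin heavy chains, the embryonic gene Myh3 reached 96.5% and 89.6%, and the adult fast gene Myh1 reached 88.7% and 80.8%. The slow gene Myh7 reached 68.5% and 51.7%, Myh4 43.4% and 45.3%, and the perinatal gene Myh8 31.4% and 15.6%. Each of these 5 was at 0% in both day 0 libraries, and Myh3 alone of them had cover at day 1, 29.8% and 22.4%. Myh2 was not tested and had 2.37% and 0% at day 5. Myh7 shares 96.2% of its body with another annotated gene, and the call of Myh8 was lost with the 4 compared libraries alone. The heavy chain genes are close relatives in sequence, and how reads shared between them were counted is not given in the sources used here.

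The thin filament had 17 genes on its list, all tested, of which 13 were called higher (12.2% over all genes) and 4 were not called. Their median difference was 66.0 points. Acta1, skeletal α-actin, had no cover at day 0, 66.1% and 55.8% at day 1, and 92.1% and 94.1% at day 5. Neb, which encodes the giant nebulin, rose over 202 kb from 0.849% and 0.700% to 95.7% and 95.1%, a difference of 94.6 points (SE 3.33, limma adjusted p = 1.08e-06). Of the troponin T genes, Tnnt3 (fast) and Tnnt1 (slow) were at 0% at day 0 and at 90.8% and 91.0%, and 86.6% and 81.5%, at day 5. Tnnt2, the cardiac and embryonic form, already had 39.5% and 43.0% at day 0 and rose to 89.3% and 90.4%. The tropomyosin genes Tpm1, Tpm2 and Tpm3 were not called and had at least 63.2% cover in every library of day 0. Tnnc1 had one day 5 library at 99.5% and the other at 61.9%, against 36.9% and 57.8% at day 0, and was not called.

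**Figure D2:**
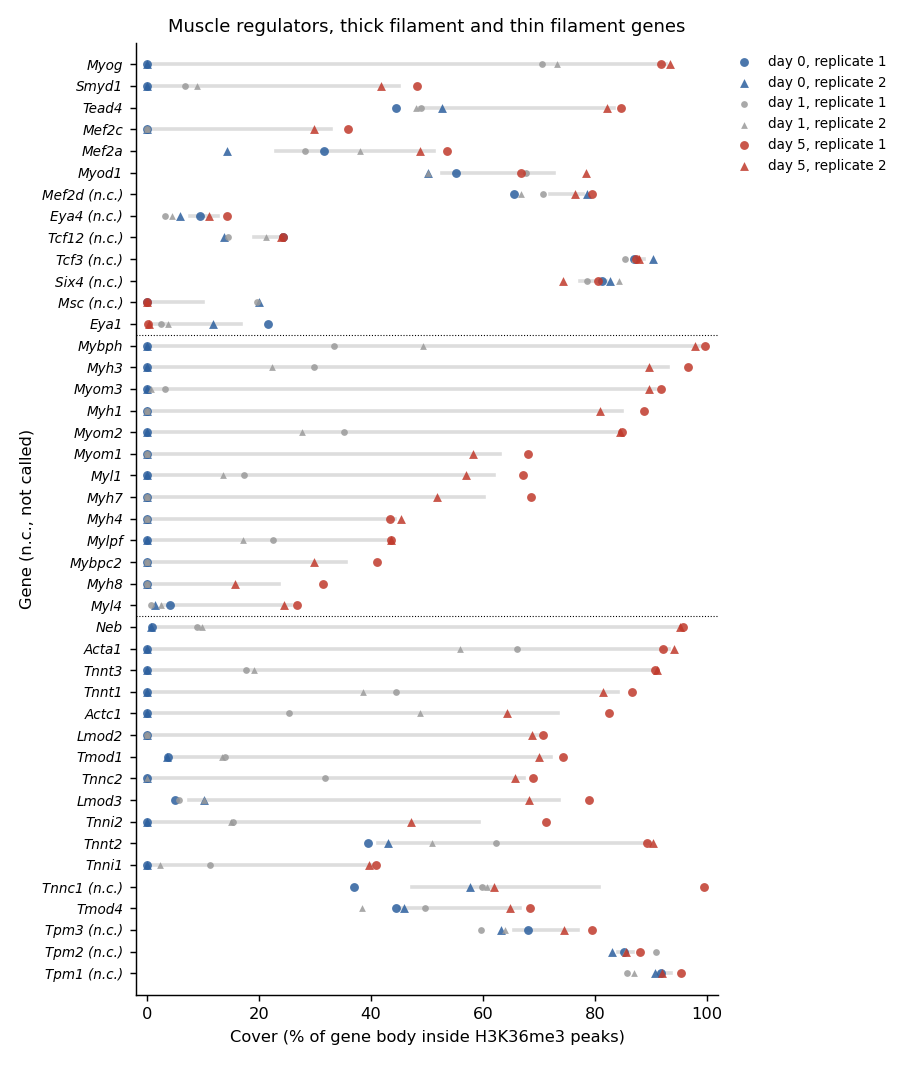
Cover (x axis, % of the gene body in peaks) of tested muscle regulators, thick filament genes and thin filament genes, separated by dotted lines, with circles for replicate 1 and triangles for replicate 2 of day 0 (blue), day 1 in control medium (grey) and day 5 (red). A grey bar joins the means of day 0 and day 5, and 18 of the 30 filament genes run from 0% to a mean above 40%, while Tpm1 and Tpm2 stay above 80% on all days.

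Of 20 Z-disc, titin and related genes, 16 were tested and 11 were called higher, beside 12.2% over all genes. Ttn, the largest of the sarcomere proteins, was already covered to 81.5% and 61.2% at day 0, and reached 96.9% and 96.6% at day 5. The call of Ttn was lost in the fit of the 4 compared libraries and without either day 5 library (limma adjusted p = 0.0678 without replicate 1 and 0.0644 without replicate 2). Actn2 and Csrp3 started from 0% and ended at 71.0% and 59.1%, and at 75.7% and 70.6%. Des, the muscle intermediate filament, and Flnc, filamin C, were not called and had at least 83.9% cover in all 4 libraries. Within a group of proteins that build a single structure, some genes thus carried peaks at day 0 and others at day 5 alone.

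Of 21 listed genes of excitation and calcium release, 16 were tested and 14 were called higher (12.2% over all genes), with a median difference of 53.3 points. The channel pair that couples the membrane to calcium release, Cacna1s and Ryr1, went from 0% in both libraries to 93.1% and 90.2%, and from 3.57% and 6.44% to 96.4% and 96.4%. At day 1 they differed, with Ryr1 at 65.3% and 62.4% and Cacna1s at 0.795% and 0%. The calcium stores Casq1 and Casq2 rose from 0% to 72.0% and 62.5%, and to 84.1% and 78.6%. Atp2a1, the fast-muscle calcium pump, rose from 26.4% and 24.2% to 92.0% and 93.6%. Atp2a2, the pump of slow muscle and of other tissues, was not called and had 93.0% to 97.2%. The sodium channel gene Scn4a rose from 0% to 83.4% and 76.7%. Trdn and Sln were listed at 0 in all 4 libraries.

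At the neuromuscular synapse, the receptor subunit genes Chrna1, Chrnb1 and Chrnd were not called and had at least 75.2% cover in all 4 libraries. Chrne, the adult ε subunit, was at 35.5% and 45.2% at day 0 and 48.6% and 36.8% at day 5, and was not called. Chrng, the fetal γ subunit, had none at day 0, 26.6% and 30.3% at day 1, and 90.7% and 92.9% at day 5 (difference 91.8 points, SE 2.85, limma adjusted p = 9.97e-07). The organisers of the synapse Musk, Lrp4 and Dok7 rose by 58.5, 42.5 and 33.7 points from partial cover at day 0. In all, 4 of 9 tested genes of this list were called higher and none lower, beside 12.2% and 15.6% over all genes.

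Of the 13 genes of the dystrophin complex and membrane repair, 8 were tested, and all 8 were called higher, beside 12.2% over all genes. Dysf, dysferlin, rose from 0% and 0.148% to 88.2% and 81.5% over 203 kb. Dag1, dystroglycan, rose from 41.2% and 35.0% to 89.9% and 87.1%, and Utrn, utrophin, from 39.4% and 30.4% to 62.8% and 59.2%. Dmd itself, at 2390 kb, was listed at 0 in all 4 libraries. Of 19 muscle genes of energy metabolism, 9 were tested and 7 called higher (12.2% over all genes), led by Pygm, muscle glycogen phosphorylase, which rose from 2.89% and 14.4% to 89.6% and 85.2%. Ckm, muscle creatine kinase, rose from 0% to 79.0% and 60.6%. Ampd1, Ckmt2, Slc2a4 and Ppargc1a were listed at 0 in all 4 libraries.

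Of 14 tested fusion and adhesion genes, 3 were called higher, 3 lower and 8 were not called, beside 12.2% higher and 15.6% lower over all genes. Mymk, which encodes the fusogen myomaker, rose from 0% to 82.5% and 82.2% after 26.8% and 46.9% at day 1. Its partner Mymx is under 2 kb, was not tested, and had 0% at day 0 and 21.3% and 30.2% at day 5. Ncam1 rose from 21.7% and 19.2% to 73.1% and 65.7%, and Cav3, caveolin of muscle, from 0% to 44.0% and 53.3%. Kirrel and Jam2, both cell adhesion genes, fell by 47.3 and 31.9 points, and Dock1, a Rac activator, fell from 14.2% and 11.4% to 2.35% and 2.13%. Cdh15, M-cadherin, and Itga7 were not called and had at least 82.3% cover in all 4 libraries.

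Of 41 listed genes of DNA replication, 40 were tested, and 37 were called lower and none higher (15.6% and 12.2% over all genes), with a median difference of −42.8 points. Cdc6, the loader of the MCM helicase, was at 93.9% and 91.4% at day 0, 63.4% and 79.4% at day 1, and 4.50% and 9.94% at day 5. Mcm10 fell from 87.3% and 88.0% to 0% and 3.74%, a difference of −85.8 points (SE 4.47, limma adjusted p = 3.86e-06). The kinase genes Cdc7 and Dbf4, which fire origins together, fell by 72.6 and 78.8 points. Lig1, the ligase that joins Okazaki fragments, fell from 84.8% and 84.3% to 2.23% and 2.25%.

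The subunits of the MCM ring had unequal differences. Mcm5 and Mcm3 fell by 74.4 and 70.4 points, Mcm4 and Mcm2 by 49.9 and 43.8 points, and Mcm6 by 36.8 points. Mcm7 had 80.0% and 74.6% at day 0 and 64.8% and 67.5% at day 5, and was not called (limma adjusted p = 0.0588). Orc6 and Rfc1 were the other tested members that were not called. The differences between the subunits themselves were not tested. Over the alternatives, the number of genes of this list called lower was between 33 and 39.

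**Figure D3:**
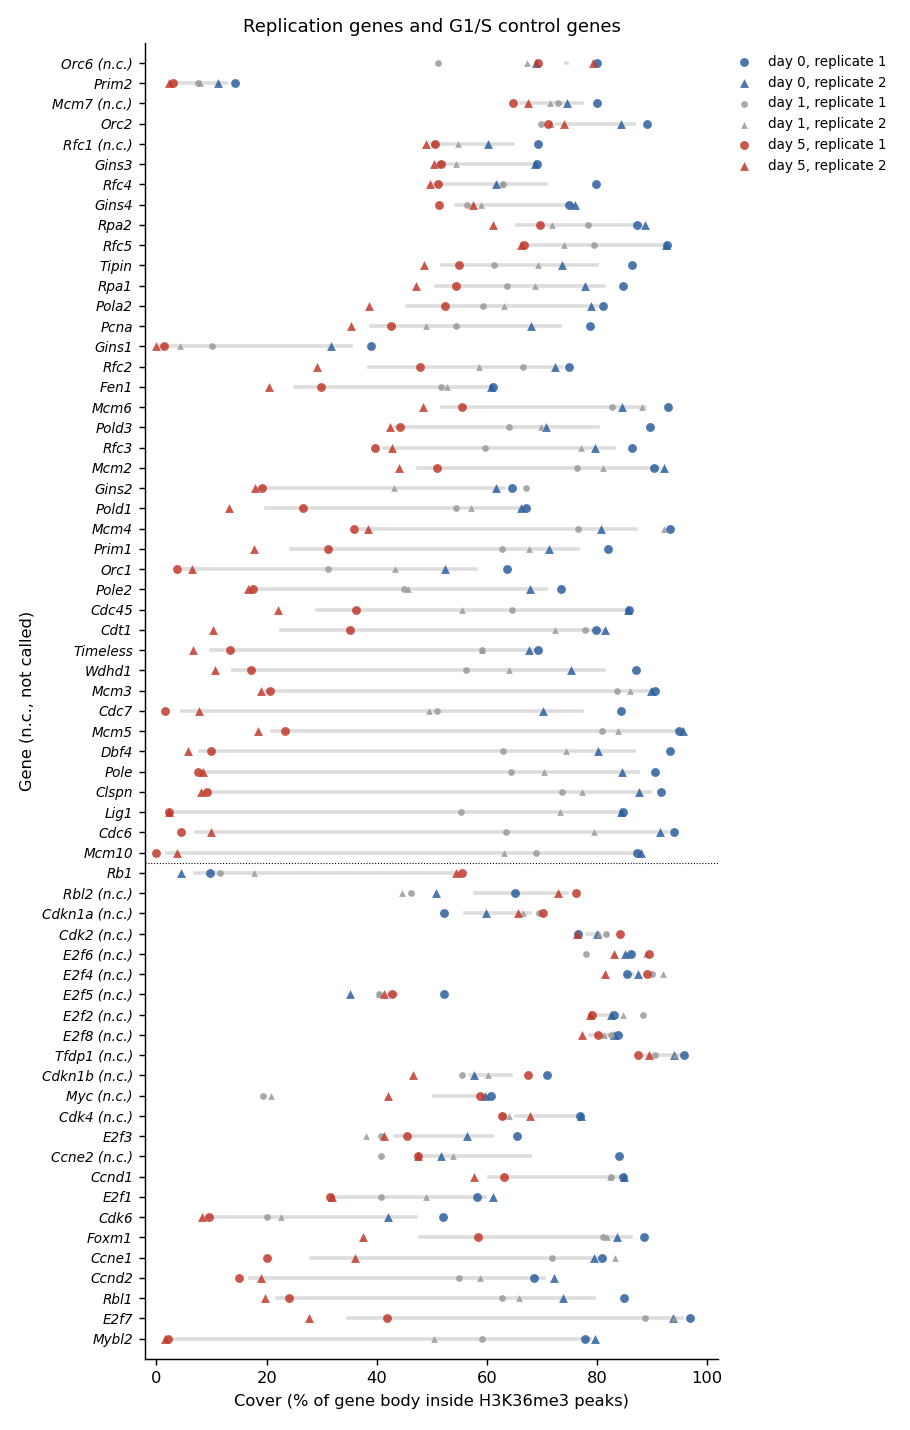
Cover (x axis, % of the gene body in peaks) of the tested replication genes (above the dotted line) and of G1/S control genes (below it), drawn with circles for replicate 1, triangles for replicate 2, and blue, grey and red for days 0, 1 and 5. The day 1 mean lies nearer to day 0 than to day 5 in 29 of the 40 replication genes and 14 of the 24 G1/S genes, as for Cdc6 at 63.4% and 79.4% at day 1, and Rb1 is the called gene that runs to the right, from 9.76% and 4.40% to 55.5% and 54.3%.

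Of 40 mitosis genes, all tested, 35 were called lower and none higher (15.6% and 12.2% over all genes), with a median difference of −53.6 points. Ndc80, a kinetochore protein that attaches chromosomes to microtubules, fell from 94.4% and 92.3% to 9.02% and 15.6%, and Nsl1 fell from 88.7% and 88.3% to 3.77% and 6.95%. Bub1b, a checkpoint kinase, fell from 96.1% and 91.7% to 26.7% and 22.9%. Cdk1, the central mitotic kinase, had 93.6% and 94.4% at day 0 and 78.2% and 70.8% at day 5, a fall of 19.5 points (limma adjusted p = 0.0212) that was lost under 4 of 22 alternatives. Its limma adjusted p was 0.134 without day 5 replicate 2, and 0.0589 and 0.0735 without day 0 replicates 1 and 2. Top2a fell by 26.7 points to 75.0% and 64.4%, a call lost when peaks within 1 kb were joined (limma adjusted p = 0.286). The cyclin gene Ccna2 was not called and had 70.3% to 74.6% in all 4 libraries, and Ccnb2 was not called either. Over the alternatives, 29 to 37 genes of the mitosis list were called lower.

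All 23 listed DNA repair genes were tested, and 22 were called lower, beside 15.6% over all genes. Brca1 fell from 77.5% and 73.4% to 1.19% and 1.49%, and Rad51ap1 from 72.6% and 66.7% to 0% in both libraries. Exo1, an exonuclease of mismatch repair, fell by 78.0 points. The damage kinase Atr was the exception, with 40.6% and 9.20% at day 0 and 32.1% and 28.6% at day 5. In nucleotide synthesis 13 of 17 tested genes were called lower (15.6% over all genes), with a median difference of −16.2 points. Without day 0 replicate 1, 7 genes of this list were called lower, and without day 5 replicate 1, 8. Rrm2, a subunit of ribonucleotide reductase, was listed at 0 in all 4 libraries, although every dividing cell uses it. Actg1, Psma7 and Psmc5, which every cell uses, were also at 0 throughout, so a listed 0 does not show that the mark was absent.

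Of 24 tested genes that govern entry into S phase, 10 were called lower, 1 higher and 13 were not called, beside 15.6% lower and 12.2% higher over all genes. Rb1, which encodes the pocket protein that holds E2F factors in check, was the member called higher. It rose from 9.76% and 4.40% to 55.5% and 54.3%, by 47.8 points (SE 3.42, limma adjusted p = 1.98e-05). Its relative Rbl1 fell by 57.5 points, and Rbl2, at 65.0% and 50.8% against 76.2% and 72.8%, was not called. Mybl2, a cofactor at mitotic promoters, fell from 77.7% and 79.7% to 2.15% and 1.51%. Among E2F genes, E2f7 fell by 60.6 points and E2f1 by 27.9 points, and E2f2, E2f4, E2f5, E2f6 and E2f8 were not called. The cyclin D genes Ccnd2 and Ccnd1 fell by 53.4 and 24.5 points. The call of Ccnd1 was lost when peaks within 1 kb were joined (limma adjusted p = 0.328), and that of E2f1 in lists of equal covered length (0.285). The inhibitor gene Cdkn1a, which encodes p21, was at 52.2% and 59.8% against 70.1% and 65.6% and was not called.

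The libraries of Myc, a growth-promoting transcription factor, were at 60.7% and 59.7% at day 0, 19.4% and 20.8% at day 1, and 58.7% and 42.1% at day 5, so that the difference between day 0 and day 5 was not called. The same shape was seen for Timp3 with 50.8% and 51.9%, 18.7% and 16.4%, and 72.6% and 66.6%. Timp3 was called higher at day 5, and its whole body is shared with another annotated gene. Its call was lost with the 4 compared libraries alone, when −log10 q had to reach 3 and in lists of equal covered length. It was also lost without day 5 replicate 1 (difference 15.3 points). In contrast, Dll1, a Notch ligand, was at 5.47% and 9.82% at day 0, peaked at 71.5% and 65.6% at day 1, and had 61.4% and 52.2% at day 5. Heyl, a Notch target, had 13.4% and 18.3%, then 71.3% and 77.8%, then 53.6% and 41.4%, and its call was lost in lists of equal covered length (limma adjusted p = 0.41). Of 13 tested Notch genes 3 were called higher and none lower, beside 12.2% and 15.6% over all genes. The receptors Notch1, Notch2 and Notch3 were not called and had at least 71.0% cover in all 4 libraries.

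Of 24 tested genes of the extracellular matrix, 7 were called higher, 4 lower and 13 not called, beside 12.2% higher and 15.6% lower over all genes. The basement membrane collagen genes Col4a1 and Col4a2, which lie head to head, fell together, from 56.3% and 58.7% to 7.01% and 5.53%, and from 52.1% and 56.4% to 7.80% and 7.11%. The other genes called lower were Thbs2 and Timp1, and Timp1 lost its call without day 5 replicate 1 (limma adjusted p = 0.0527), with the 4 compared libraries alone and on the arcsine scale. Among genes called higher, Col1a1 rose from 55.4% and 66.4% to 87.9% and 92.3%, the proteoglycan gene Dcn from 0% to 34.7% and 26.0%, and the protease gene Mmp2 from 1.52% and 5.54% to 40.3% and 27.1%. The call of Col1a1 was lost when −log10 q had to reach 3. Fn1, Sparc and the interstitial collagen genes Col1a2, Col3a1, Col5a1 and Col5a2 were not called. The number called higher depended on the lists, since 4 matrix genes were called higher without day 5 replicate 1 and none with a −log10 q of at least 3.

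In the insulin-like growth factor (IGF) axis, which drives both growth and differentiation of myoblasts, the binding protein gene Igfbp2 had the largest fall of the 9512 genes tested. It went from 92.2% and 94.9% to 8.09% and 1.94% (limma adjusted p = 6.11e-06). Igf2r, the receptor that clears IGF2, rose from 20.6% and 19.3% to 66.0% and 61.8%. Igfbp5 and Igf1r were not called. Irs1 and Igfbp7 were called lower, and these calls were lost under 4 and 6 alternatives. Of 14 listed genes 8 were tested, of which 1 was called higher and 3 lower, beside 12.2% and 15.6% over all genes. Igf1, Igf2 and Grb10 were listed at 0 in all 4 libraries.

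Of 16 tested genes for non-muscle actins, myosins and related proteins, 5 were called lower and none higher. For this list and those that follow, the shares over all genes are 12.2% higher and 15.6% lower. Without day 5 replicate 2 the count was 3, with Actn1 (limma adjusted p = 0.0506) and Tagln (0.125) lost. Lmnb1, lamin B1, fell from 58.7% and 59.2% to 35.7% and 34.1%, and Myh9, Vim and Tpm4 were not called. Among writers and erasers of H3 lysine 36 methylation, Setd2 had 78.1% and 65.6% at day 0 and 82.8% and 78.4% at day 5 and was not called. Of 11 tested, 3 were called higher and 1 lower, and 1 to 6 were called higher over the alternatives. Kdm2a lost its call without day 0 replicate 2 (limma adjusted p = 0.0757), day 5 replicate 1 (0.105) or day 5 replicate 2 (0.0788), each of which left 2 called higher. Kdm2b lost its call with the 4 compared libraries alone, when −log10 q had to reach 3 and in lists of equal covered length. The demethylase gene Kdm4b rose by 38.1 points, and Kdm8 fell by 27.2 points, a call lost in lists of equal covered length. In the methionine cycle 4 of 11 tested genes were lower and none higher, led by Mtrr, methionine synthase reductase, which fell from 80.0% and 69.5% to 28.9% and 20.1%, a call lost in lists of equal covered length. Without day 5 replicate 2, 2 genes of the methionine list were called lower, since Ahcy (limma adjusted p = 0.0631) and Srm (0.09) lost the call. In the amino acid stress response 5 of 14 were lower and none higher, and Asns, asparagine synthetase, fell by 37.8 points. Without day 5 replicate 2 that count was 3, with Slc7a1 (limma adjusted p = 0.0658) and Trib3 (0.164) lost. All 30 tested proteasome genes, a housekeeping list, were not called, with a median difference of −0.321 points and differences between −10.0 and 3.59 points.

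Markers of other cell types were examined beside these lists. All 8 adipocyte markers had at most 4.46% cover in the 4 libraries, and 6 of them were listed at 0 throughout. Of the blood and endothelial markers 7 of 8 were at 0, and Cd68, of 1.96 kb, had 94.0% to 100% on both days. Of 8 bone and cartilage markers 6 were at 0. Runx2 fell from 38.1% and 30.9% to 23.3% and 20.8%, and Sox9 was not called. The call of Runx2 was lost with the 4 compared libraries alone and with the 6 WT libraries in control medium. It was also lost without day 0 replicate 1 (difference −8.87 points) or day 5 replicate 2 (−11.2 points). Of 8 neuronal markers, 3 were tested and all 3 were called lower, beside 15.6% over all genes. Nefm and Nefl, neurofilament genes, fell from 52.4% and 48.3% and from 50.9% and 28.8% to 0% in both day 5 libraries. Tubb3 fell from 64.3% and 64.2% to 47.9% and 39.3%, and 4 of the 8 were at 0 throughout. The calls of Nefl and Tubb3 were lost when −log10 q had to reach 3 and in lists of equal covered length. That of Tubb3 was also lost with the 4 compared libraries alone and without day 5 replicate 2 (difference −16.3 points). The part of these markers in the other results was not tested.

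Complete switches were counted as genes under 10% in both libraries of one day and at least 50% in both libraries of the other. In this sense 86 genes (0.446% of 19300) were switched on by day 5 and 59 (0.306%) were switched off. When −log10 q had to reach 3, 81 genes were switched on and 209 off. The limits chose these genes, so their levels on days 0 and 5 are a description. Among those switched on, 45 were still under 10% in both day 1 libraries, 36 met neither limit in both, and 5 had reached at least 50% in both: Acta1, Dll1, Myog, Pdk1 and Ryr1. Among those switched off, 24 were still at 50% or more in both day 1 libraries, 33 met neither limit in both, and 2, Ass1 and Mgp, were under 10% in both. At day 1 the median cover of the genes switched on was 7.83% and 6.28%, and that of the genes switched off was 50.6% and 49.4%.

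Of the genes switched on, 50 belonged to none of the lists, and those named next were chosen after their values were seen. Dclk1, a doublecortin-like kinase gene of 297 kb, went from 0.728% and 0.849% to 87.2% and 82.4%. Fst, which encodes the myostatin antagonist follistatin, went from 0% to 71.8% and 70.6%, and Trim63, a muscle ubiquitin ligase, from 0% to 88.8% and 80.3%. Of the genes switched off, 40 belonged to none of the lists. Several of these also serve cell division, such as Kntc1 and Cdc25c, but others do not. The chemokine gene Cxcl12 went from 54.0% and 54.2% to 3.29% and 2.90% and the aminotransferase gene Bcat1 from 81.0% and 77.3% to 7.53% and 8.66%. Hmga2, a chromatin protein of growing cells, missed the limit for switched off, going from 97.9% and 98.6% to 23.3% and 17.7%.

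Gained and lost territory was also counted in base pairs. Bases in both day 5 lists and in neither day 0 list came to 17.8 Mb, 7.28% of all bases in any of the 4 lists. Bases in both day 0 lists and neither day 5 list came to 13.6 Mb (5.53%), and 105 Mb (43.0%) were in all 4. Gained over lost turned to 12.1 against 18.1 Mb when −log10 q had to reach 3, and to 13.9 against 14.3 Mb in lists of equal covered length. The longest gained stretch was 62.2 kb in Neb at chr2:52154209-52216453, followed by a second stretch of 38.1 kb in the same gene. The longest lost stretch was 12.4 kb in Hmga2 at chr10:120379197-120391614, followed by 11.6 kb in Nsl1 at chr1:191064930-191076494. Of the 15 longest lost stretches, 5 lay in Hmga2, and others in Mybl2, Kif15, Mcm10, Kntc1 and Lig1. These coordinates are those of the deposited lists, whose build is GRCm38 per the submitters' processing notes. Stretches of at least 5 kb numbered 154 gained and 32 lost, an order that turned in lists restricted to a −log10 q of 3 or more (295 and 339) and narrowed to 499 and 481 in lists of equal covered length.

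Within genes, gain and loss ran along most of the body. A base shared by overlapping genes counts for each of them. This concerns, among others, 45.9% of Tnnt3, 37.9% of Casq1, 37.7% of Ckm, 37.0% of Fst, 33.3% of Hmga2, 32.5% of Igf2r and 32.4% of Col4a1. Strand was known for 924 of the genes called higher and 1214 of those called lower. In the first of 10 equal parts of the body, genes called higher had a mean cover of 6.01% at day 0 and 15.7% at day 5, and in the eighth part 32.6% and 64.7%. Genes called lower went from 15.7% to 5.63% in the first part and from 72.8% to 42.1% in the last part. Genes marked in all 4 libraries and not called rose from 14.2% in the first part to 94.1% in the ninth at day 0, and from 13.6% to 92.9% at day 5. The shape of low cover at the start and high cover toward the end was therefore present on both days in all 3 sets.

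**Figure D4:**
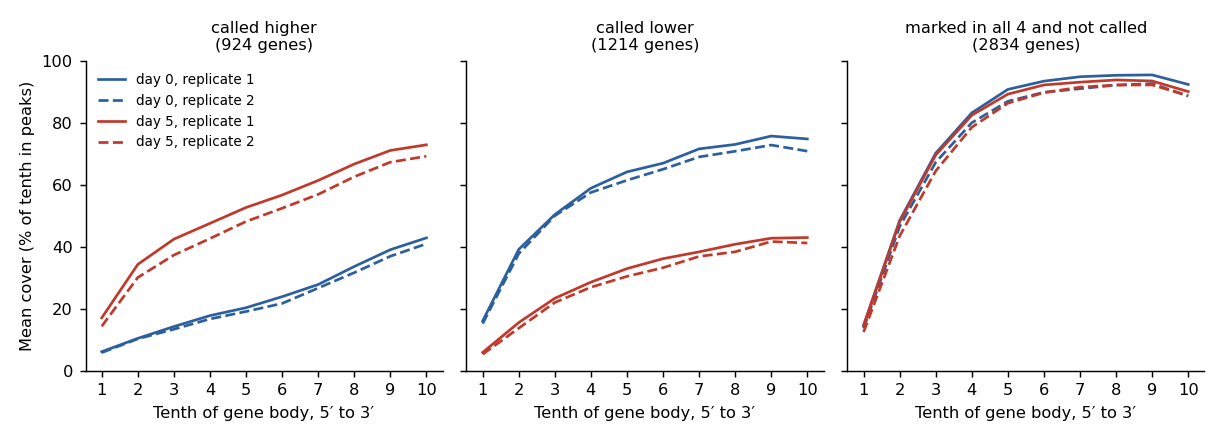
Mean cover (y axis, % of each part in peaks) along 10 equal parts of the gene body from 5′ to 3′ (x axis), for genes called higher, genes called lower and genes marked in all 4 libraries and not called, with day 0 in blue, day 5 in red, replicate 1 solid and replicate 2 dashed. The lines of the days lie apart through the whole body in the first and second panels, by 9.72 points in the first part and 32.0 points in the eighth part of genes called higher, which the calls themselves select.

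Calls were also counted by the length of the gene. From 2 to 5 kb, 4.09% of 904 tested genes were called higher and 16.6% lower. Above 200 kb, 37.4% of 195 tested genes were called higher and 10.8% lower. The classes between followed in order, with 7.26%, 12.7% and 20.6% higher for 5 to 20, 20 to 50 and 50 to 200 kb. The median difference ran from −5.73 points in the shortest class to 5.15 points in the longest, and the median SE from 6.62 to 2.83 points. These medians cover only tested genes, 195 of 989 above 200 kb. With no filter on low cover, the median above 200 kb was 0.035 points over 592 genes, of which 23.0% were called higher, and that from 50 to 200 kb was 0.433 points against 2.51. Without day 0 replicate 2 the medians of these classes were 3.07 and −0.769 points, and without replicate 1 they were 7.04 and 5.37 points. The longest genes called higher were Cdh13, T-cadherin, which at 1185 kb rose from 2.23% and 1.79% to 32.7% and 27.9%, and Celf2, Nav2, Slc9a9 and Pard3. The longest called lower were Zfhx3, Dock1, Diaph3, Ltbp1 and Sorcs2. The call of Zfhx3 was lost under 14 of 22 alternatives, among them without day 0 replicate 2 (limma adjusted p = 0.0898) and without either day 5 library (0.0694 and 0.0882). That of Ltbp1 was lost without day 0 replicate 1 (limma adjusted p = 0.0534), day 5 replicate 1 (0.0543) or day 5 replicate 2 (0.078), and with the 4 compared libraries alone. Diaph3 lost its call with the 4 compared libraries alone, and Sorcs2 in lists of equal covered length. The excess of higher over lower calls above 200 kb was present in the main fit and in all 22 alternatives, between 21.0% and 44.6% higher and between 3.59% and 12.9% lower. Between 50 and 200 kb it was present in 21 of these 23 fits. The list shape of day 0 moved with this result. Median cover of genes above 200 kb was 18.5% in day 0 replicate 1 and 15.9% in replicate 2, against 24.2% and 21.7% at day 5. The part of list shape in the pattern was not tested.

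**Figure D5:**
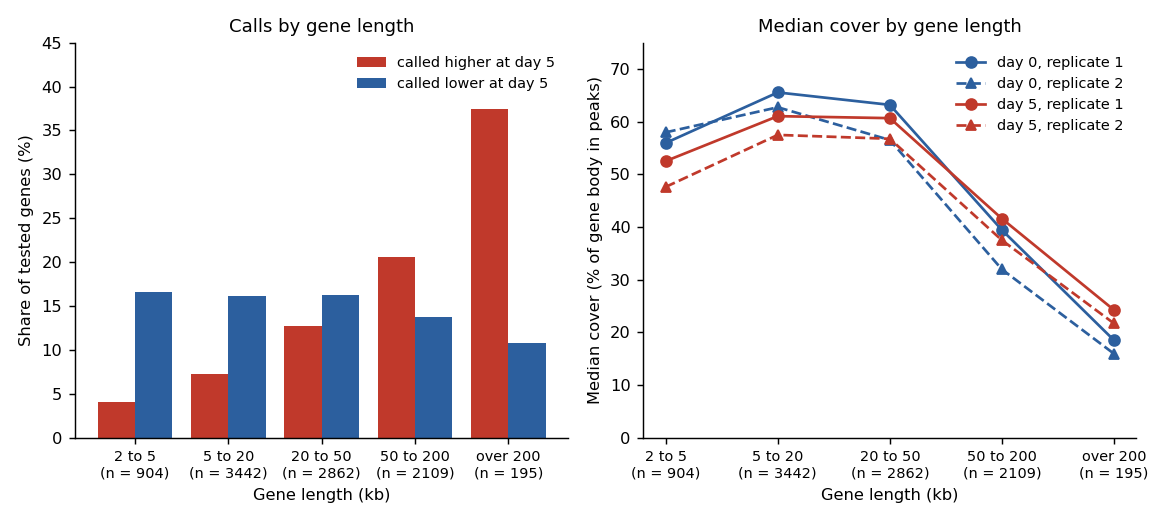
Left, share of tested genes called higher (red) and lower (blue) at day 5 (y axis, %) in 5 classes of gene length (x axis, kb, with the number tested). Right, median cover of the same classes (y axis, % of the gene body in peaks) in each of the 4 libraries. The red bars climb from 4.09% to 37.4%, and above 200 kb both day 5 libraries lie above both day 0 libraries.

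Promoters were searched for letters recognised by factors known to act on muscle and cell cycle genes. The windows run from 250 bases before to 50 bases after an annotated start and are RefSeq sequences of GRCm38.p6. The table matched 64 of the genes switched on (80 windows) and 45 of those switched off (52 windows). Below are 2 genes with large gains and 2 with large losses, taken only from genes whose window held a searched match. That these windows hold matches was therefore fixed by the choice. In the first 2, capitals mark matches to the E-box of the myogenic factors (CAGCTG), the MCAT element (CATTCC, or GGAATG on the other strand), or the CArG box of serum response factor. In the last 2, capitals mark matches to the E2F site (TTCCCGC or TTGGCGC, or GCGGGAA or GCGCCAA on the other strand) or the CCAAT box (CCAAT or ATTGG). Acta1 lies at chr8:123894726-123895025 on the minus strand, Chrng at chr1:87205561-87205860, Cdc6 at chr11:98907901-98908200 and Clspn at chr4:126556730-126557029, these 3 on the plus strand.
Acta1: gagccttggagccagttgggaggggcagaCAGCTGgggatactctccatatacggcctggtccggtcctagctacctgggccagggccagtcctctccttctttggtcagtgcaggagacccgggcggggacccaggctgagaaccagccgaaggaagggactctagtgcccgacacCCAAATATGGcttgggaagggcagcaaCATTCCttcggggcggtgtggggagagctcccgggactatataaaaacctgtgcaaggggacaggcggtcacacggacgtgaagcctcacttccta
Chrng: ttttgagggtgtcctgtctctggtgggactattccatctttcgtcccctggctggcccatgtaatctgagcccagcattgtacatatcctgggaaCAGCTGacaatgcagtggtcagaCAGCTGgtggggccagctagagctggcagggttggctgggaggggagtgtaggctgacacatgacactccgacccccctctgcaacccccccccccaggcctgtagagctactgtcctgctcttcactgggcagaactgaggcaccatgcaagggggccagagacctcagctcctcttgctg
Cdc6: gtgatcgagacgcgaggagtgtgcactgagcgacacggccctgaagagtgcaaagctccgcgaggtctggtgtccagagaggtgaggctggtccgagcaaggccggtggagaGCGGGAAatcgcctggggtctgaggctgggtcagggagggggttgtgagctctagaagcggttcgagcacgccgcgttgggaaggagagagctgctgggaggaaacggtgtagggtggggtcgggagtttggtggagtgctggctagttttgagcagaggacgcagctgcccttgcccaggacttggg
Clspn: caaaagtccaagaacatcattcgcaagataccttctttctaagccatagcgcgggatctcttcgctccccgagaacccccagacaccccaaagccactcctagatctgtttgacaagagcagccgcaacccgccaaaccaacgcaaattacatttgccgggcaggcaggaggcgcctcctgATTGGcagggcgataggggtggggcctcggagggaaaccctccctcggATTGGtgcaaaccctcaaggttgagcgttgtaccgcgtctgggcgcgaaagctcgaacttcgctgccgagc

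Both genes that gained carry the E-box, Acta1 from position −221 and Chrng from positions −155 and −132, counted from the annotated start. The E2F match of Cdc6 begins at position −138, and the same window also holds the letters cagctg, left in lower case. That window lies wholly inside the gene body used for cover, which starts at chr11:98907709. Over all genes switched on, 36.3% of the 80 windows held CAGCTG, against 16.3% of all 32851 windows in the table and 14.9% of the 9791 windows of tested genes. MCAT letters stood in 20 of the 80, in 14.7% of all windows and in 11.5% of those of tested genes. For the MEF2 box, searched by name, the shares were 8.75%, 3.19% and 1.74%. Over the genes switched off, 40.4% of the 52 windows held an E2F match, against 6.81% of all windows and 12.4% of those of tested genes. The CHR element of mitotic promoters (TTTGAA, or TTCAAA on the other strand) stood in 23.1% of the 52 windows. It stood in 17.9% of all windows and in 11.6% of those of tested genes. For the CCAAT box the shares were 44.2%, 37.4% and 37.8%. Over the larger sets, CAGCTG was in 20.8% of the windows of genes called higher and 14.05% of those of genes called lower, and the E2F match in 8.29% and 18.5%. These are matches of letters on both strands, not sites of binding, and no test was made. Few of the windows lay in peaks: at least 50% of the window was inside peaks for 5 of the 80 windows of switched-on genes in each day 5 library and 1 in each day 0 library.

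Hairpins of miRNAs were placed on the same peaks. Peaks over a hairpin do not show that the miRNA was made. Of 1005 hairpins in the RefSeq table, 257 lay wholly inside peaks in all 4 libraries and 596 touched none. Wholly inside peaks on one day in both libraries and untouched on the other were 15 hairpins at day 0 and 13 at day 5. Some sat in genes that were called, such as Mir763 in Hmga2, Mir7119 in Clspn, Mir1963 in Ryr1 and Mir6923 in Myh3. The cluster of Mir182, Mir96 and Mir183 lies in no protein-coding gene and was inside peaks in both libraries of day 0 and of day 1 and in neither of day 5, with hairpins at chr6:30165918-30165992, chr6:30169446-30169551 and chr6:30169668-30169737 on the minus strand. Mir210, a hypoxia-induced miRNA known in muscle differentiation, at chr7:141221384-141221493 on the minus strand, was inside peaks in both day 5 libraries and in none of day 0 or day 1. The 4 mature sequences are RefSeq's, with the seed, bases 2 to 8, in capitals.
mmu-miR-182-5p: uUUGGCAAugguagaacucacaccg
mmu-miR-96-5p: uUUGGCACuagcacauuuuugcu
mmu-miR-183-5p: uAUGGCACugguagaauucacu
mmu-miR-210-3p: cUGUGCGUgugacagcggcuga

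The 4 seeds all differ, but those of miR-182-5p and miR-96-5p differ in the last base alone. Those of miR-96-5p and miR-183-5p differ in the first base alone. With a −log10 q of at least 3, 10 of the 15 hairpins and 7 of the 13 kept this pattern, the Mir182, Mir96 and Mir183 cluster and Mir210 among them. The muscle hairpins Mir206 and Mir133b were wholly inside peaks in every library of days 0, 1 and 5. The same held for Mir25, Mir93 and Mir106b inside Mcm7. The muscle hairpins Mir499, in Myh7b, and Mir208b, in Myh7, were at 0% at day 0 and day 1. At day 5 Mir499 was at 100% and 0%, and Mir208b at 0% and 100%.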

How the data were processed

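H3K36me3 ChIP-seq peak lists of the 10 WT libraries were used, and the knockout libraries were left out. The members and gene lists were chosen with earlier results of these data known. The deposited files hold 1 peak per line with a fold enrichment (a ratio), a −log10 p, a −log10 q and a score, as the authors gave them. The genome was GRCm38, per the submitters' processing notes, and the peak caller and its settings are not given in the sources used here. Peaks were merged within a library, and cover was computed for RefSeq protein-coding genes of at least 2 kb (Python, pandas and numpy). Genes whose cover averaged 5% or more across these 10 libraries were fitted in limma 3.58.1 (R 4.3.3) with 5 groups, a trended and robust variance and BH adjustment. With 2 libraries against 2, an exact permutation test cannot go below p = 0.333, so single library values were not called. Named genes are the 15 with the largest called difference in each direction, the 5 longest in each direction and the list members, of which some are not reported here. Lists of equal covered length keep each library's peaks, in order of the authors' fold, up to the smallest covered length among the 10, that of day 1 MR replicate 2. The scripts were checked on simulated data. Replicate numbers were not taken to pair the libraries. The deviations of same-numbered libraries correlated at r = −0.0287 between day 0 and day 5. Between day 0 and day 1 in control medium r was −0.439, and 2 libraries a group cannot settle whether the numbers pair.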

Additional observations from a re-analysis of the deposited data

How the results depend on the processing

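The 4 libraries compared by themselves gave 1617 calls (3073 at an unadjusted p under 0.05), 665 higher and 952 lower, against 2641, 1157 and 1484. With a −log10 q of at least 3, 594 genes were called higher, the log2 difference in covered length was −0.112 against 0.0704, marked genes (cover of at least 50%) differed by −687.5 against −211.5, regions gained and lost were 12.1 and 18.1 Mb, and 209 genes were switched off. Lists of equal covered length gave a difference of −526 marked genes and 13.9 Mb gained. Limits of 5% and 75% left 30 genes switched on and 6 switched off. Leaving out 1 library at a time gave 1843 to 2643 calls, 738 to 1365 higher and 930 to 1512 lower, −0.0125 to 0.153 for covered length, and −432 to 9 for marked genes. The replicate block gave 2457 calls, 1078 higher and 1379 lower, and the labels do not say that the shared numbers pair the libraries. Of 260 named or listed genes called, 175 kept the call in every fit in which they were tested, 85 lost it in at least 1 and 0 reversed. The causes were not tested. The lists carry no depth, so a gene outside peaks may carry the mark below the calling limit.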

Other observations

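Of 245 tested X genes, 7.35% were called higher and 24.1% lower, while the autosomes ran from 8.06% to 16.1% higher and from 10.1% to 19.2% lower. The lower share of X was above that of every autosome in 20 of 23 fits, the main one included. It was not in the fit of the 4 compared libraries, in lists of equal covered length or without day 5 replicate 1. The share of X genes called lower was 13.1% and 13.9% without day 5 replicate 1 and 2, 17.1% without day 0 replicate 1 and 33.9% without day 0 replicate 2. The day 0 libraries themselves differed on X, with 3.35 and 2.34 Mb in peaks, beside 2.50 and 2.24 Mb at day 5. The part of that difference in the result was not tested.

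Among the 100 peaks with the highest fold given by the authors in each list, Ttn held 4 and 6 in the day 5 libraries and none at day 0. The lowest fold among these 100 was 6.60 and 7.59 at day 0 and 5.56 and 5.44 at day 5. These are ranks within each list, so they do not compare the fold at Ttn between days. Plec, Lmna, Cdh15, Fn1, Sparc and Myh9 held 1 each in all 4 lists.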
